A study of Mus musculus with 69 samples.

Results

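The genes described here are 7 glucose transporter genes of the kidney tubule, chosen by symbol: the sodium-coupled carriers Slc5a2, Slc5a1 and Slc5a9, the SGLT2 partner Pdzk1ip1, and the facilitative carriers Slc2a2, Slc2a1 and Slc2a9. All 7 were listed in each of the 4 deposited tables, among 55487 genes at 24 h and 53700 genes at 72 h. RNA had been sequenced from tubules of wild-type male C57BL/6 mice aged 7 weeks: PT-S1, the initial stretch of the proximal tubule, and CCD, the collecting duct of the cortex. A kidney had been cut out (unilateral nephrectomy, UNx) or a sham procedure done 24 h or 72 h earlier. For PT-S1 there were 3 sham animals (8 libraries) and 4 UNx animals (9 libraries) at 24 h, and 5 sham and 5 UNx animals (12 libraries each) at 72 h. For CCD there were 4 sham animals (8 libraries) and 3 UNx animals (7 libraries) at 24 h, and 4 sham animals (7 libraries) and 4 UNx animals (6 libraries) at 72 h. Levels are given in TPM, an abundance divided by gene length, so that genes of a library can be compared. The animal was the replicate, and an animal's level is the mean over its libraries.

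Filtered glucose is taken back in the proximal tubule by sodium-coupled carriers at the apical membrane and leaves the cell through facilitative carriers at the basolateral membrane. SGLT2, encoded by Slc5a2, works early along the proximal tubule, where it needs the small membrane protein MAP17 (Pdzk1ip1), and SGLT1, encoded by Slc5a1, works further down with a higher affinity. GLUT2 (Slc2a2) is the basolateral exit in the early proximal tubule, GLUT1 (Slc2a1) brings glucose into distal segments that burn it, SGLT4 (Slc5a9) carries mannose and related sugars, and GLUT9 (Slc2a9) is mainly a urate carrier.

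The promoters of 4 members are shown because their levels differed between the segments in 4 ways: Slc2a2 was high in PT-S1, Slc2a1 was high in CCD, Pdzk1ip1 was high in both, and Slc5a1 was high in a few libraries of either segment. RefSeq promoter sequences (build GRCm38.p6, which is not the build of the deposited files) were matched by symbol for 5 of the 7 members. Each line gives the 250 bases before the annotated start, 5′ to 3′ on the gene's strand, with motif matches on either strand in capitals. The GC box was searched as the letters GGGCGG. An E-box was searched as the palindrome CACGTG. The TATA box was searched as TATAAA, and no match overlapped another.
Slc2a2, chr3:28697653-28697902, plus strand: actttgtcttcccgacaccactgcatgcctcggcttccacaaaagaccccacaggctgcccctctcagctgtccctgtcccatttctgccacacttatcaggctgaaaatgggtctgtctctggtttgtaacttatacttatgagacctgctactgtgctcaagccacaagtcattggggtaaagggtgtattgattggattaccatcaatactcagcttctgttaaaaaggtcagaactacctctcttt
Slc2a1, chr4:119108495-119108744, plus strand: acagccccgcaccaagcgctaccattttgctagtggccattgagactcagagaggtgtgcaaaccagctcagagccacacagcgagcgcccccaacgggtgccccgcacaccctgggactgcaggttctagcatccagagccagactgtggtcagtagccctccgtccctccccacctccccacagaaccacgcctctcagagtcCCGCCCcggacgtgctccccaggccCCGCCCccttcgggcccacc
Pdzk1ip1, chr4:115088458-115088707, plus strand: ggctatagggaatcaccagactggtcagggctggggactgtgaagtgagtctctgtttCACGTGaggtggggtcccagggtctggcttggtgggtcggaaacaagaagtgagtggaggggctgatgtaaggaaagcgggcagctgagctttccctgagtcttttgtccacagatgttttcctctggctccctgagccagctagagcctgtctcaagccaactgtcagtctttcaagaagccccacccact
Slc5a1, chr5:33103969-33104218, plus strand: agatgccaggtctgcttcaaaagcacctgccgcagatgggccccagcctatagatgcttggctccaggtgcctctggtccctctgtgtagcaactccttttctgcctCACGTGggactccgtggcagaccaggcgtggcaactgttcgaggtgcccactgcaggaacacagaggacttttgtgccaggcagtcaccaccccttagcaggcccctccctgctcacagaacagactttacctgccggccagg
The Slc2a1 window held 2 GC boxes, read as CCGCCC on the printed strand, and 66.4% G or C bases. The windows of Pdzk1ip1 and Slc5a1 each held 1 E-box, with 55.6% and 60.0% G or C. None of the 3 motifs was found in the Slc2a2 window, which had 47.2% G or C. A half-site of the transcription factor HNF1, searched as GTTAAT, was found in none of the 4 windows and in 6.43% of all windows. Among all 32851 windows of this length in the table, a GC box stood in 32.7%, an E-box in 6.02% and a TATA box in 12.4%.

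The dissected tubules carried the markers of their labels. The summed level of 5 markers of proximal tubule S1 (Slc5a12, Slc34a1, Lrp2, Gatm, Cubn) ranged from 6541 to 14316 TPM over PT-S1 animals and from 1.80 to 64.7 TPM over CCD animals. That of 5 principal cell markers (Aqp2, Aqp3, Avpr2, Scnn1b, Scnn1g) ranged from 15222 to 58909 TPM over CCD animals and from 27.9 to 113 TPM over PT-S1 animals. In each PT-S1 group only 1 of these 5 reached 1 TPM. It was Aqp3, with sham and UNx means of 76.9 and 82.0 TPM at 24 h and 34.6 and 52.3 TPM at 72 h. Of the 69 libraries, 5 correlated poorly with the rest of their table (median r under 0.92): a sham animal 1 library and a sham animal 3 library in PT-S1 24 h, a library each of UNx animals 1 and 2 in PT-S1 72 h, and a sham animal 1 library in CCD 72 h. In tubule samples of this kind, fewer cells of a type and less RNA per cell cannot be told apart.

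Slc5a2 (ENSMUSG00000030781) was the most abundant of the 6 sugar carriers in PT-S1. In PT-S1 24 h the sham animals stood at 3065, 3245 and 2436 TPM and the UNx animals at 2290, 2361, 792 and 2512 TPM. UNx animal 3 was far below the others, and UNx animal 4 lay within the sham range, so the groups overlapped. At 72 h the sham animals stood at 2234, 3155, 1654, 3240 and 2546 TPM and the UNx animals at 1801, 1808, 3370, 3410 and 3401 TPM. Here 3 UNx animals lay above every sham animal and the other 2 near the bottom of the sham range. In CCD, Slc5a2 was listed between 0.200 and 4.99 TPM in sham and between 0 and 1.34 TPM in UNx animals over both times, a level read from tables that were normalized separately.

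The low Slc5a2 means of UNx animals 1 and 2 at 72 h each came from a pair of unlike libraries. In UNx animal 1 the libraries held 3161 and 440 TPM of Slc5a2, and in UNx animal 2 they held 3279 and 336 TPM. The lower library of each pair is the one with a low correlation to its table. In these libraries Slc2a2 was at 45.7 and 50.6 TPM, against 373 and 394 TPM in the other library of the same animal, and Slc5a9 was at 6.06 and 7.03 TPM against 40.3 and 47.9 TPM. Pdzk1ip1 went the other way, with 6180 and 5249 TPM against 3309 and 3064 TPM. The libraries of low correlation in sham PT-S1 24 h differed from each other in direction: that of animal 1 held 4236 TPM of Slc5a2, 548 TPM of Slc2a2 and 1279 TPM of Pdzk1ip1, and that of animal 3 held 1176, 61.3 and 4689 TPM.

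Pdzk1ip1 (ENSMUSG00000028716), whose product is required for SGLT2 activity, was abundant in both segments. The sham animals of PT-S1 24 h stood at 2431, 2979 and 3302 TPM and the UNx animals at 3188, 2578, 3043 and 3405 TPM. At 72 h the sham animals ranged from 2737 to 4021 TPM with a median of 3238 TPM, and the UNx animals from 2914 to 4744 TPM with a median of 3420 TPM. In CCD 24 h the sham animals stood at 5141, 3507, 4632 and 4441 TPM and the UNx animals at 3921, 4257 and 3524 TPM, and in CCD 72 h sham ranged from 3783 to 5755 TPM and UNx from 4393 to 5084 TPM. In CCD Pdzk1ip1 was thus far above Slc5a2, while in PT-S1 the pair stood at like levels, 2904 ± 440 and 2915 ± 424 TPM (SD, n = 3) in sham animals at 24 h. Sham and UNx animals overlapped in all 4 tables.

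Slc5a9 (ENSMUSG00000028544) shared the segment of Slc5a2 at a far lower level. It stood at 60.4, 43.2 and 41.3 TPM in sham and at 42.4, 37.1, 36.5 and 34.8 TPM in UNx animals of PT-S1 24 h. The highest UNx animal lay within the sham range. At 72 h it stood at 37.1, 44.4, 35.98, 42.0 and 36.8 TPM in sham and at 23.2, 27.4, 46.6, 42.0 and 46.7 TPM in UNx animals, with the same 2 UNx animals low as for Slc5a2. In CCD no animal was above 0.720 TPM.

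Slc2a2 (ENSMUSG00000027690), the basolateral exit of the early proximal tubule, came after Slc5a2 and Pdzk1ip1 in each PT-S1 group, and its range touched that of no other member there. The sham animals of PT-S1 24 h stood at 341, 250 and 225 TPM and the UNx animals at 326, 249, 237 and 241 TPM. At 72 h the sham animals stood at 197, 361, 131, 258 and 238 TPM and the UNx animals at 209, 223, 303, 245 and 287 TPM. The UNx values lay inside the sham range at both times. In CCD it was near 1 TPM, between 0.440 and 1.78 TPM over all animals.

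Slc2a1 (ENSMUSG00000028645), the carrier that supplies glucose to distal cells, was the second most abundant member of CCD. The sham animals of CCD 24 h stood at 464, 575, 498 and 470 TPM and the UNx animals at 357, 561 and 570 TPM. In CCD 72 h the sham animals stood at 423, 548, 596 and 537 TPM and the UNx animals at 511, 581, 504 and 426 TPM. The groups overlapped at both times. In PT-S1 24 h Slc2a1 stood at 13.3, 12.2 and 9.85 TPM in sham and at 7.80, 10.3, 9.72 and 8.82 TPM in UNx animals, and in PT-S1 72 h between 10.5 and 16.2 TPM in sham and between 8.02 and 14.3 TPM in UNx animals.

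Slc2a9 (ENSMUSG00000005107), the urate carrier, was low in both segments. It ranged from 1.58 to 3.88 TPM over sham and from 1.33 to 2.74 TPM over UNx animals of PT-S1. In CCD 24 h it stood at 6.46, 4.69, 2.68 and 12.9 TPM in sham and at 3.30, 7.995 and 6.76 TPM in UNx animals, and in CCD 72 h at 4.42, 4.88, 8.60 and 10.1 TPM and at 5.61, 2.74, 4.80 and 7.39 TPM. Its ranges in PT-S1 and CCD overlapped.

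**Figure D1:**
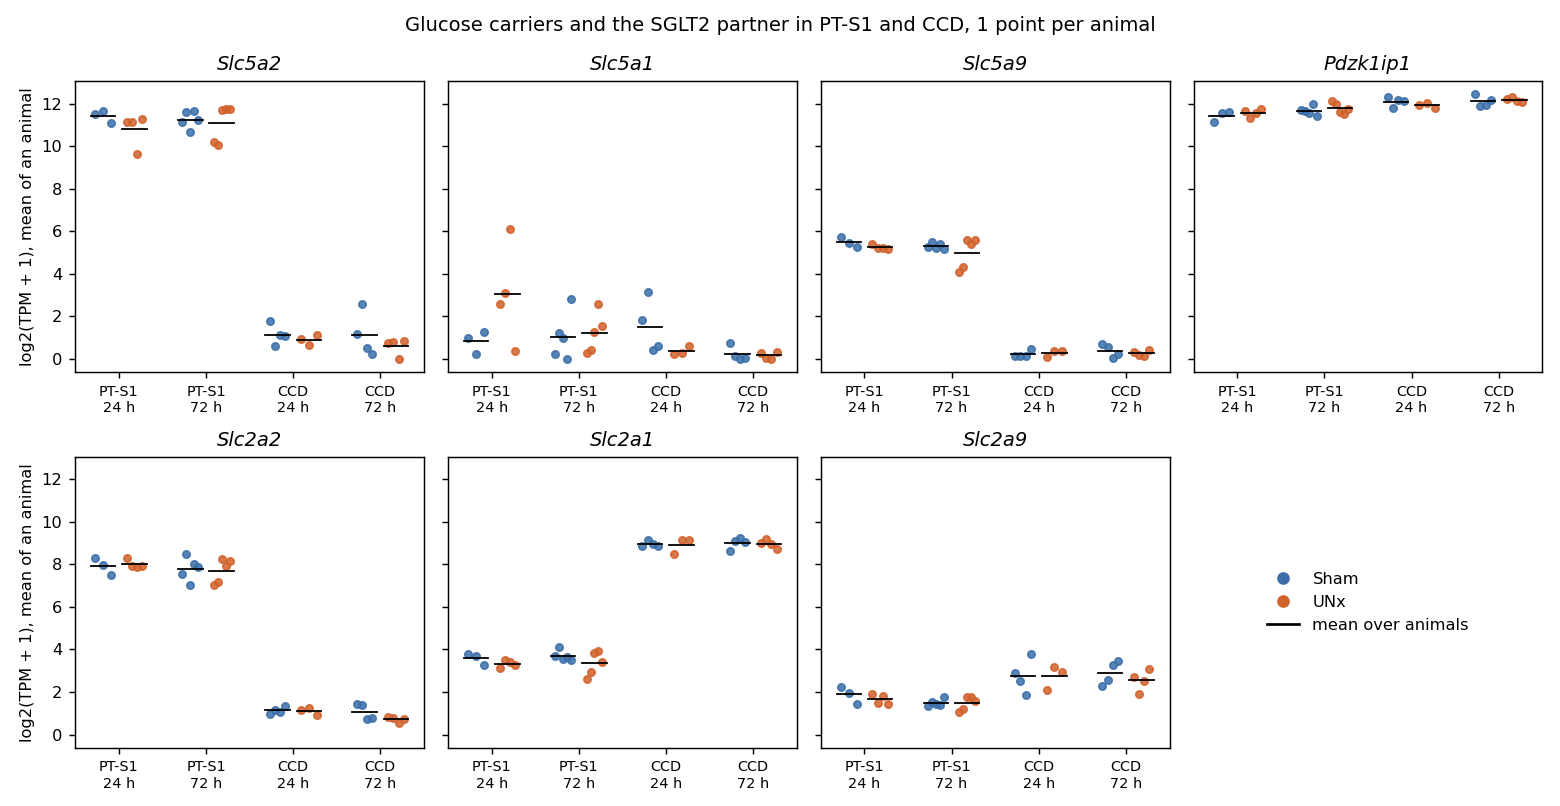
Level of each member, as log2(TPM + 1), in the 4 tables, with sham animals in blue and UNx animals in orange (1 point per animal, line at the group mean). Slc5a2, Slc2a2 and Slc5a9 are higher in PT-S1 than in CCD, Slc2a1 is higher in CCD, and Pdzk1ip1 is high in both. Slc5a1 is spread widely in PT-S1 24 h UNx animals, in sham and UNx animals of PT-S1 72 h, and in CCD 24 h sham animals.

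Ordered by group mean, the PT-S1 groups began with Slc5a2 and Pdzk1ip1, followed by Slc2a2 and Slc5a9, and the CCD groups began with Pdzk1ip1, Slc2a1 and Slc2a9. Slc5a2 and Pdzk1ip1 did not differ beyond their ranges in 3 of the 4 PT-S1 groups. In UNx animals at 24 h they lay apart, with the highest Slc5a2 animal at 2512 TPM and the lowest Pdzk1ip1 animal at 2578 TPM. Across the 8 groups, the 4 PT-S1 groups of Slc5a2, Slc2a2 and Slc5a9 overlapped their neighbours in the order and stood apart from all 4 CCD groups. For Slc2a1 the 4 CCD groups came first and stood apart from the PT-S1 groups. For Pdzk1ip1 and Slc2a9 the CCD groups also came first, but each group overlapped the next.

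Slc5a1 (ENSMUSG00000011034), the high-affinity carrier of the later proximal tubule, was low in most libraries and high in a few. In PT-S1 24 h the sham animals stood at 1.96, 0.175 and 2.70 TPM and the UNx animals at 5.52, 35.5, 67.4 and 0.313 TPM. UNx animals 2 and 3 were high, and UNx animal 4 lay within the sham range. In UNx animal 2 the level came from 1 of its libraries, with 71.0 TPM against 0.0300 TPM in the other, while both libraries of UNx animal 3 were high, at 59.5 and 75.2 TPM. At 72 h the sham animals stood at 0.190, 2.12, 0.965, 0.00667 and 19.4 TPM and the UNx animals at 0.235, 0.350, 4.30, 5.03 and 2.73 TPM. The 19.4 TPM of sham animal 5 came from libraries of 4.65, 53.5 and 0.130 TPM.

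The PT-S1 libraries with the most Slc5a1 were also those with much Slc22a6, the organic anion carrier typical of the second segment, and with less Slc5a2 than most. The libraries of UNx animal 3 at 24 h held 1252 and 1354 TPM of Slc22a6 and 716 and 869 TPM of Slc5a2. The high library of UNx animal 2 held 1134 TPM of Slc22a6 and 1580 TPM of Slc5a2, against 162 and 3141 TPM in the other library of that animal. The high library of sham animal 5 at 72 h held 935 TPM of Slc22a6 and 1463 TPM of Slc5a2. Slc7a13, an amino acid carrier of the third segment, was at 24.1 and 64.9 TPM in the libraries of UNx animal 3, at 338 TPM in that of UNx animal 2 and at 828 TPM in that of sham animal 5.

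Relations of Slc5a1 and Slc5a2 to these markers, and of Slc5a1 to Slc12a1 in CCD, were computed over animals within a table, on log2(TPM + 1). The 8 relations were chosen after their values were seen, and their p-values and adjustment do not allow for that choice. In PT-S1 24 h Slc5a1 was higher in animals with more Slc22a6 (7 animals, Pearson r = 0.894, exact permutation p = 0.00913, adjusted 0.0183; Spearman rho = 0.964, p = 0.00278, adjusted 0.0111). It was also higher with more Slc7a13 (r = 0.821, exact permutation p = 0.00397, adjusted 0.0106; rho = 0.929, p = 0.00675, adjusted 0.0145). At 72 h the values over 10 animals were r = 0.771 with Slc22a6 (permutation p = 0.0148, adjusted 0.0233; rho = 0.733, p = 0.0195, adjusted 0.0311) and r = 0.916 with Slc7a13 (permutation p = 0.00116, adjusted 0.00794; rho = 0.806, p = 0.00724, adjusted 0.0145). Without the 2 animals farthest from the median of Slc5a1, r stayed positive, at 0.995 and 0.778 at 24 h and 0.740 and 0.683 at 72 h. Taken as deviations from the sham and UNx means, r was 0.848 and 0.846 at 24 h and 0.806 and 0.948 at 72 h. Slc5a2 was lower in animals with more Slc22a6 in PT-S1 24 h (r = -0.81, exact permutation p = 0.0175, adjusted 0.0233; rho = -0.82, p = 0.0341, adjusted 0.0392), a relation that rested on the extreme animals, since r was -0.40 without them. At 72 h Slc5a2 had the opposite sign and r missed the threshold, with r = 0.596 (permutation p = 0.0676, adjusted 0.0773; rho = 0.685, p = 0.0343, adjusted 0.0392; r = 0.562 without the 2 farthest animals).

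Marker sums of the later segments reached both higher and lower in UNx than in sham animals of PT-S1 24 h. All 3 markers of the second segment (Slc22a6, Slc22a8, Cyp4b1) were at 1 TPM or more in both groups, and their sum ranged from 3190 to 4473 TPM in sham and from 2964 to 8276 TPM in UNx animals. Of 4 markers of the third segment (Slc7a13, Cyp7b1, Slc22a13, Atp11a), 2 in sham and 3 in UNx reached 1 TPM, none was at 0 in every library, and the sum ranged from 24.1 to 111 TPM in sham and from 12.5 to 244 TPM in UNx animals. The sum of the 5 first-segment markers, none of them at 0 throughout, ranged from 10273 to 12967 TPM in sham and from 6541 to 10764 TPM in UNx animals. At 72 h the second-segment sum ranged from 1173 to 6857 TPM in sham and from 1456 to 5699 TPM in UNx animals, and the third-segment sum from 12.0 to 416 TPM and from 14.2 to 108 TPM. The third-segment sum was not particular to proximal tubule, since over CCD animals it ranged from 72.7 to 122 TPM. The part of these markers in the levels of Slc5a1 and Slc5a2 was not tested.

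In CCD at 24 h, but not shown at 72 h, Slc5a1 was higher in animals with more Slc12a1, the thick ascending limb transporter. In CCD 24 h the sham animals stood at 4.07, 18.9, 0.350 and 0.580 TPM of Slc5a1 and the UNx animals at 0.160, 0.225 and 0.520 TPM. A library of sham animal 2 held 36.8 TPM of Slc5a1 beside 800 TPM of Slc12a1, and a library of sham animal 1 held 7.63 TPM beside 114 TPM. Their companion libraries held 1.04 and 0.500 TPM of Slc5a1 beside 3.63 and 0.770 TPM of Slc12a1. Over the 7 animals r was 0.962 (exact permutation p = 0.00198, adjusted 0.00794; rho = 0.964, p = 0.00278, adjusted 0.0111), and 0.755 without the 2 farthest animals. This relation was also among the 8 chosen after their values were seen, which its p-values do not allow for. Over the 8 animals of CCD 72 h, where no animal was above 0.730 TPM of Slc5a1, r was 0.586 (exact permutation p = 0.234, adjusted 0.234; rho = 0.335, p = 0.410, adjusted 0.410), -0.38 without the 2 farthest animals and -0.38 without the library of low correlation. The summed level of 3 thick ascending limb markers (Slc12a1, Umod, Cldn16), all at 1 TPM or more, ranged from 98.6 to 3455 TPM in sham and from 83.9 to 199.6 TPM in UNx animals of CCD 24 h, and its part in the Slc5a1 level was not tested.

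**Figure D2:**
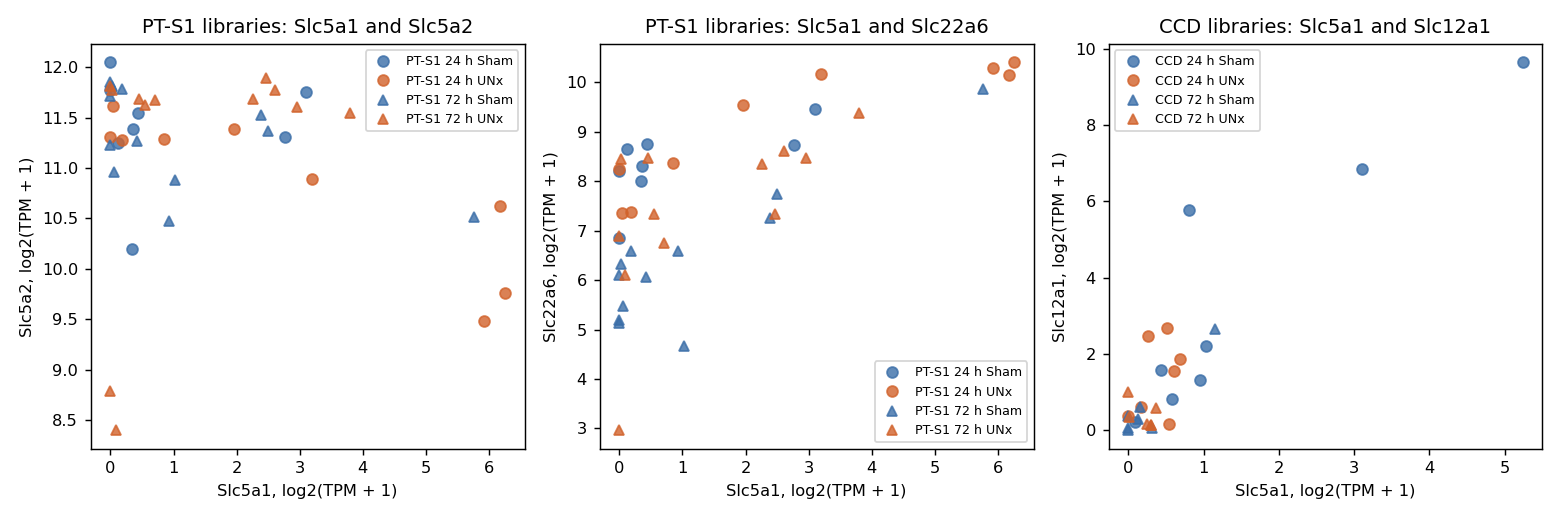
Slc5a1 against Slc5a2 (left) and Slc22a6 (middle) in each PT-S1 library and against Slc12a1 in each CCD library (right), as log2(TPM + 1), with circles for 24 h, triangles for 72 h, blue for sham and orange for UNx. The 4 PT-S1 libraries with 53.5 to 75.2 TPM of Slc5a1 are among those with the most Slc22a6, the 2 lowest Slc5a2 libraries are those of low correlation at 72 h, and the CCD library with 36.8 TPM of Slc5a1 also has the highest Slc12a1, 800 TPM.

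UNx was set against sham within each table by limma on log2(TPM + 1) of the animals, over all genes with a mean of at least 1 TPM, with Benjamini-Hochberg adjustment and a threshold of 0.05. No member passed in any table: 0 of 7 tested in PT-S1 24 h, 0 of 7 in PT-S1 72 h, 0 of 6 in CCD 24 h and 0 of 4 in CCD 72 h. Over all genes tested 0% passed in either PT-S1 table, 0.987% in CCD 24 h and 0.595% in CCD 72 h. At an unadjusted p under 0.05 the members also gave 0 in each table, against 17.8%, 20.5%, 15.5% and 7.49% of all genes in the same order. The sham and UNx animals of every member tested overlapped, while 21.3%, 5.58%, 15% and 4.77% of all genes had groups that did not.

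The member with the largest difference was Slc5a1 in PT-S1 24 h, higher by 2.21 in UNx animals (SE 1.00, 95% interval -0.0091 to 4.44, limma adjusted p = 0.281). It was 1.19 (adjusted p = 0.252) without UNx animal 3 and 3.11 (adjusted p = 0.206) without UNx animal 4. Slc5a2 differed by -0.64 (SE 0.365, interval -1.45 to 0.17, adjusted p = 0.350), and by -0.25 (adjusted p = 0.464) without UNx animal 3. Pdzk1ip1 and Slc2a2 differed by 0.14 and 0.10, and Slc5a9, Slc2a1 and Slc2a9 by -0.23, -0.25 and -0.22 (adjusted p from 0.431 to 0.794 over these 5). The median over the 7 members was -0.22 and that over all genes tested -0.19. Without the 2 libraries of low correlation Slc5a1 stood at 1.90 and Slc5a2 at -0.71 (adjusted p = 0.293 and 0.259).

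For PT-S1 72 h the differences were -0.17 for Slc5a2 (SE 0.363, interval -0.96 to 0.62, adjusted p = 0.766), 0.16 for Slc5a1, -0.31 for Slc5a9, 0.13 for Pdzk1ip1, -0.083 for Slc2a2, -0.35 for Slc2a1 and -0.018 for Slc2a9 (adjusted p from 0.379 to 0.956). The median over members was -0.083 against -0.29 over all genes tested. With both UNx libraries of low correlation left out, most signs turned: Slc5a2 stood at 0.44 (adjusted p = 0.218), Slc2a2 at 0.51 (0.277), Slc5a9 at 0.21 (0.278), Slc2a1 at 0.19 (0.564), Slc2a9 at 0.26 (0.317) and Pdzk1ip1 at -0.037 (0.890). With median-ratio scaling Slc5a2 stood at 0.22 and Slc2a2 at 0.30.

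At 24 h in CCD Slc2a1 differed by -0.046 (SE 0.163, interval -0.42 to 0.32), Pdzk1ip1 by -0.18 (interval -0.48 to 0.13) and Slc2a9 by -0.034 (interval -0.99 to 0.92). Slc5a2, Slc2a2 and Slc5a1 differed by -0.24, -0.050 and -1.15 (limma adjusted p from 0.395 to 0.981 over the 6 genes), and Slc5a1 fell below the minimum level when sham animal 2 was left out. In CCD 72 h the differences were -0.030 for Slc2a1 (SE 0.143, interval -0.35 to 0.29), 0.085 for Pdzk1ip1, -0.33 for Slc2a9 and -0.53 for Slc5a2 (adjusted p from 0.898 to 0.985). The library of low correlation there, of sham animal 1, held 273 TPM of Slc2a1, 2.02 TPM of Slc2a9 and 7187 TPM of Pdzk1ip1, against 572, 6.82 and 4323 TPM in the other library of that animal. Without it the differences were -0.16 for Slc2a1, -0.50 for Slc2a9, 0.18 for Pdzk1ip1 and -0.68 for Slc5a2 (adjusted p from 0.434 to 0.579). Slc5a9 at 24 h and Slc5a1, Slc5a9 and Slc2a2 at 72 h were under the minimum level and were not tested in CCD. The medians over members were -0.11 and -0.18 against -0.038 and 0.010 over all genes tested.

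**Figure D3:**
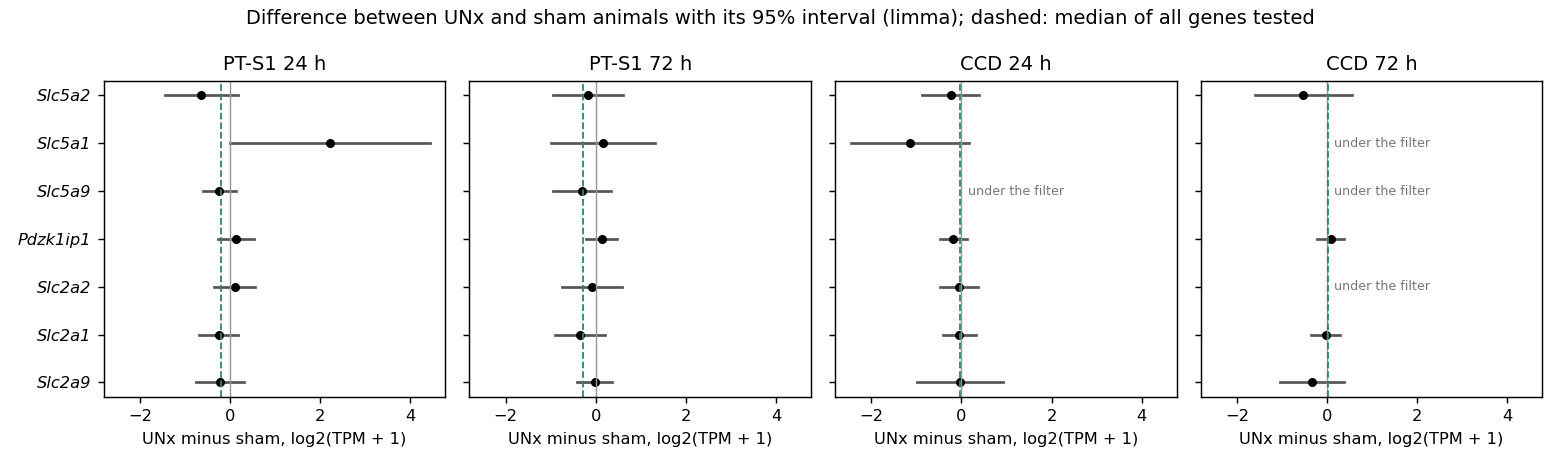
Difference between UNx and sham animals in log2(TPM + 1), with its 95% interval from limma, for each member in each table, and the median over all genes tested as a dashed line. The interval of every member tested reaches 0, and the widest is that of Slc5a1 in PT-S1 24 h, from -0.0091 to 4.44.

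Whether the operation acted differently at 24 h and 72 h, or in PT-S1 and CCD, was tested as the difference of both effects. PT-S1 and CCD animals can carry the same number and may be the same mice, which the labels do not say; the segment tests treated them as separate animals. No member passed: 0 of 7 by time in PT-S1, 0 of 4 by time in CCD, 0 of 6 by segment at 24 h and 0 of 4 by segment at 72 h, against 0%, 0%, 0.137% and 0% of all genes. The effect on Slc5a1 was lower by 3.36 on the log2 scale in CCD than in PT-S1 at 24 h (difference -3.36, SE 1.33, interval -6.19 to -0.53, unadjusted limma p = 0.0231, adjusted 0.260). Of all 10988 genes tested in that comparison, 1695 had an unadjusted p under 0.05. The highest Slc5a1 libraries were of UNx animals 2 and 3 in PT-S1 and of sham animals 1 and 2 in CCD. By time in PT-S1 the effect on Slc5a1 differed by -2.05 (SE 1.19, adjusted p = 0.998) and that on Slc5a2 by 0.47 (SE 0.579, adjusted p = 0.998).

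Log2 ratios of 2 members within a library were taken as differences of log2(TPM + 1), so where a gene is near or under 1 TPM, as Slc5a1 mostly was, the added 1 shrinks the ratio and lets it depend on scaling. Of 10 such tests none passed an exact permutation test over animals (two-sided, adjusted p from 0.429 to 0.971). The smallest p possible was 0.0286 in CCD 72 h and 0.00794 in PT-S1 72 h. At 24 h, with 3 animals against 4 or fewer, the two-sided p doubles the smaller tail and has too few arrangements to reach the threshold. The 24 h ratio tests in PT-S1 and CCD could therefore not have passed. With the adjustment over all 10 tests, the CCD 72 h test could not have passed either. A PT-S1 72 h test could have passed only if other tests there had a very low p too. No conclusion is drawn from the 24 h tests or from the CCD 72 h test. In PT-S1 24 h the log2 ratio of Slc5a2 to Pdzk1ip1 was 0.0055 ± 0.453 (sham, SD, n = 3) and -0.77 ± 0.793 (UNx, SD, n = 4), and that of Slc5a2 to Slc2a2 was 3.52 ± 0.244 and 2.78 ± 0.737. That of Slc5a2 to Slc5a1, which the added 1 makes an underestimate, was 10.6 ± 0.799 in sham and ran from 3.54 to 10.9 in UNx animals. Without UNx animal 3 the UNx minus sham difference was -0.38 for Slc5a2 to Pdzk1ip1 and -0.39 for Slc5a2 to Slc2a2, against -0.78 and -0.74 with all animals (exact permutation adjusted p = 0.600 without it and 0.429 with it). The ratio of Slc2a2 to Slc2a1 was 4.33 ± 0.148 in sham and 4.68 ± 0.351 in UNx animals. For PT-S1 72 h the sham and UNx means were -0.40 and -0.71 for Slc5a2 to Pdzk1ip1, 3.46 and 3.37 for Slc5a2 to Slc2a2, 10.2 and 9.88 for Slc5a2 to Slc5a1, and 4.10 and 4.37 for Slc2a2 to Slc2a1. Without the 2 libraries of low correlation the UNx minus sham difference of Slc5a2 to Pdzk1ip1 turned from -0.30 to 0.48 (exact permutation adjusted p = 0.750 and 0.159). In CCD the ratio of Slc2a1 to Slc2a9 was 6.202 ± 0.870 (SD, n = 4) and 6.19 ± 0.206 (SD, n = 3) at 24 h and 6.12 ± 0.415 and 6.42 ± 0.663 (SD, n = 4) at 72 h.

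**Figure D4:**
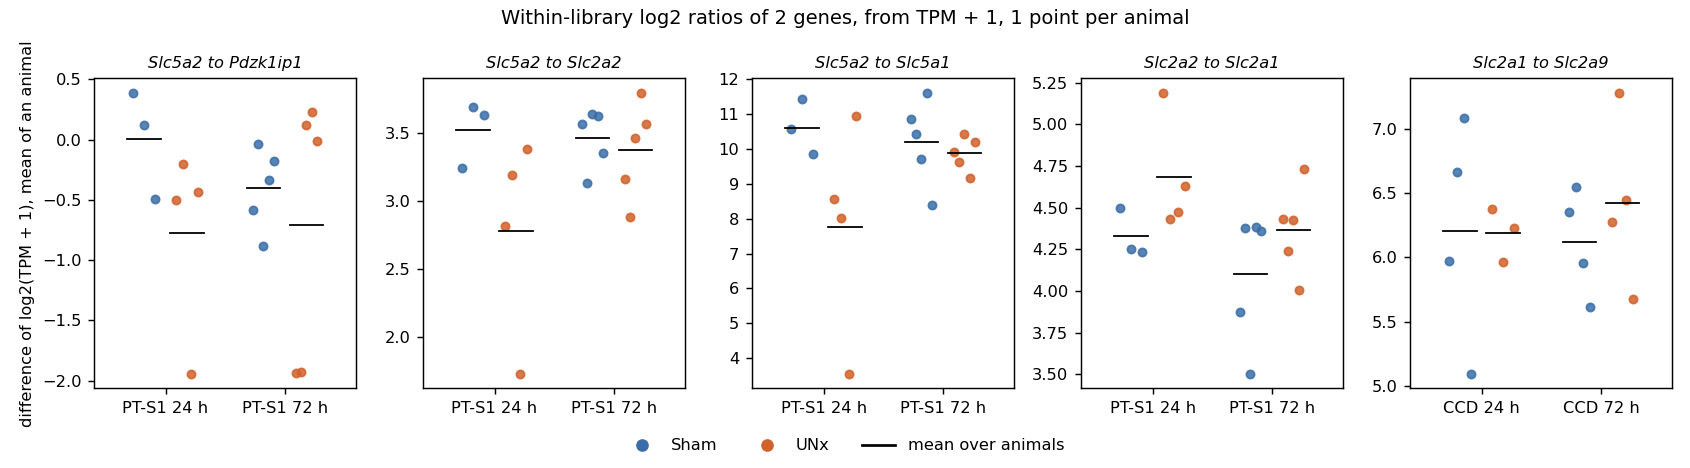
Log2 ratio of 2 genes in the same library, as the difference of their log2(TPM + 1) averaged per animal, for 4 pairs in PT-S1 and 1 pair in CCD, with sham animals in blue, UNx animals in orange and a line at the group mean. The ratio of Slc5a2 to Slc5a1 spans 3.54 to 10.9 in UNx animals of PT-S1 24 h, and 2 UNx animals of PT-S1 72 h stand low in the ratio of Slc5a2 to Pdzk1ip1.

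The genes whose deviations from the group mean were most like those of Slc5a2 over the 17 PT-S1 animals, of 6330 genes with a mean of at least 10 TPM, were Jam3, a junctional adhesion molecule (Pearson r = 0.971), Slc34a3, the phosphate carrier NaPi-IIc (r = 0.959), and B3galnt1, a glycosyltransferase (r = 0.953). For Slc2a2 they were Snx14 (0.978), App (0.973) and the fatty acid elongase Elovl5 (0.969), and for Pdzk1ip1 Saysd1 (0.878), Smim11 (0.876) and Mrpl21 (0.865). For Slc2a1 over the 15 CCD animals, of 8469 genes, they were Zmym5 (0.915), Car5b (0.908) and Nolc1 (0.896). These points share libraries, and the genes were chosen for the likeness. Without the libraries of low correlation r was 0.928, 0.959 and 0.915 for the genes like Slc5a2, 0.931, 0.939 and 0.930 for those like Slc2a2, 0.795, 0.827 and 0.697 for those like Pdzk1ip1, and 0.913, 0.808 and 0.863 for those like Slc2a1. Among the members, r between Slc5a2 and Slc2a2 was 0.759 with all libraries and 0.468 without those, and r between Slc5a2 and Pdzk1ip1 was -0.36 and 0.190.

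Of 43 related gene symbols in 6 lists, 41 were listed. The others, Nherf1 and Nherf2, are newer symbols of Slc9a3r1 and Slc9a3r2, which were listed and tested. None of the genes passed the limma threshold in either direction: 28 and 29 were tested in PT-S1 at 24 h and 72 h, and 29 and 26 in CCD. At an unadjusted p under 0.05 there were 8, 4, 1 and 1 of them, against 17.8%, 20.5%, 15.5% and 7.49% of all genes. Groups did not overlap for 4, 1, 2 and 1, against 21.3%, 5.58%, 15% and 4.77%. The median difference over the genes tested was 0.049, -0.18, -0.14 and 0.0059 in the same order.

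Among the facilitative carriers, 10 listed, 4 were tested in each PT-S1 table and 5 in each CCD table. By sham mean, the most abundant were the fructose carrier Slc2a5 and the intracellular carrier Slc2a8 in PT-S1, and Slc2a8 and Slc50a1 (SWEET1) in CCD. At 24 h in PT-S1 the sham and UNx means were 157 ± 12.1 and 232 ± 104 TPM (SD, n = 3 and 4) for Slc2a5 and 28.4 ± 0.890 and 20.0 ± 3.27 TPM for Slc2a8, whose groups did not overlap (log2 difference -0.49, limma adjusted p = 0.254). At 72 h Slc2a5 stood at 85.4 ± 37.0 and 100.7 ± 23.0 TPM (SD, n = 5) and Slc2a8 at 24.1 ± 3.77 and 23.2 ± 7.56 TPM. The sham means in CCD 24 h were 68.1 TPM for Slc2a8 and 64.1 TPM for Slc50a1, and in CCD 72 h 69.2 and 60.1 TPM.

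Among the 7 other sodium-coupled carriers, 4, 4, 3 and 1 were tested. By sham mean, the most abundant in PT-S1 were the lactate carrier Slc5a12, with sham and UNx means of 306 ± 162 and 182 ± 42.9 TPM at 24 h and 237 and 229 TPM at 72 h, and the inositol carrier Slc5a11, with 72.9 and 93.8 TPM at 24 h and 67.5 and 82.4 TPM at 72 h. In CCD they were the inositol carrier Slc5a3, with 33.4 and 20.5 TPM at 24 h and 15.0 and 12.3 TPM at 72 h, Slc5a11 at 24 h with 3.27 and 0.772 TPM, and Slc5a10 at 72 h with 1.18 and 0.296 TPM. Slc5a10, the fructose and mannose carrier SGLT5, is also named for PT-S1 after its values were seen: it stood at 19.8, 25.2 and 47.7 TPM in sham and at 303, 155, 749 and 25.6 TPM in UNx animals at 24 h (log2 difference 2.86, limma adjusted p = 0.254), with the same UNx animal low as for Slc5a1.

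Among 6 genes of the first steps of sugar use, 2 and 3 were tested in PT-S1 at 24 h and 72 h and 3 in each CCD table. Ketohexokinase (Khk), which starts fructose breakdown, had sham and UNx means of 702 and 1019 TPM in PT-S1 at 24 h and of 662 and 569 TPM at 72 h. Hexokinase 1 (Hk1) had means of 311 and 349 TPM in CCD at 24 h and of 321 and 376 TPM at 72 h.

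Among scaffolds and subunits of the sodium pump, which drives the sodium-coupled carriers, 6 were tested in each table. By sham mean they were led in PT-S1 by the pump regulator Fxyd2, with 7432 and 6688 TPM in sham and UNx animals at 24 h and 9035 and 12755 TPM at 72 h, and the scaffold Pdzk1, with 1677 and 1510 TPM and 1670 and 1412 TPM. In CCD they were led by the pump subunit Atp1b1, with 1450 and 1318 TPM at 24 h and 1208 and 1294 TPM at 72 h, beside Fxyd2 at 72 h (636 and 873 TPM).

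Of 8 transcription factors and regulators, Hnf4a, a factor of proximal tubule identity, had the highest sham mean in PT-S1, with sham and UNx means of 137 and 86.1 TPM at 24 h and of 108 and 87.5 TPM at 72 h (limma adjusted p = 0.268 and 0.252). In PT-S1 72 h all 8 had negative differences, with a median of -0.62 against -0.29 over all genes, of which only 2020 of 11886 tested had positive ones. The UNx libraries there include those of low correlation, with 9247 and 9632 genes at 1 TPM or more. The differences of the regulators were not computed without these libraries. In CCD the most abundant were Txnip, an inhibitor of glucose uptake, with 1058 and 984 TPM at 24 h and 717 and 871 TPM at 72 h, and the kinase Sgk1, with 836 and 876 TPM and 279 and 408 TPM.

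The urate transport genes, related to Slc2a9, numbered 4 and were tested in each table. At 24 h in PT-S1 Slc17a1 had sham and UNx means of 691 ± 37.4 and 1017 ± 229 TPM (SD, n = 3 and 4), without overlap (limma adjusted p = 0.254), and Abcg2 of 684 and 637 TPM. At 72 h they were 369 and 457 TPM for Slc17a1 and 532 and 620 TPM for Abcg2. In CCD Abcg2 stood at 18.2 and 21.5 TPM at 24 h and 12.3 and 12.1 TPM at 72 h, and Slc17a1 at 8.44 and 4.74 TPM and at 5.87 and 1.36 TPM.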

How the data were processed

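RNA was polyA-selected and sequenced from 69 tubule libraries, 1 for each sample. The authors deposited TPM values, 1 table for each segment and time, from RSEM 1.3.3 and STAR on GRCm39, per the submitters' processing notes; TPM scales each library to 1000000 and keeps no depth, so depth and counting error are unknown. All 69 columns were used (47 matched 1 sample, 22 a group and animal), and 0 were identical. Animals are the numbers in the sample titles, and their libraries were averaged. The p-values measure the spread between these animals.

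Genes with a mean of at least 1 TPM over animals were tested on log2(TPM + 1), a scale that understates changes of low genes, with limma 3.58.1 (R 4.3.3, moderated with a trend, two-sided, Benjamini-Hochberg over all genes tested). Tables were normalized separately, so UNx was set against sham within a table. Tests combined tables only as differences of these effects, with their animals taken as separate. Levels were also ordered across tables, with no test. The likeness pooled deviations from group means over both tables of a segment. Ratios and correlations used permutation tests (scipy 1.17.1; exact, or 100000 resamples for 10 animals). The R code was tested on simulated data. Alternatives were the pseudocount, filters, scaling, averaging, animals left out, libraries of low correlation left out, the animal as random effect and a replicate block. The members and lists were chosen with earlier results of these data known. Besides the 7 members, the text names, for each related list and table, the genes that passed and the 2 with the highest sham mean, and the 3 genes most like a member. Some genes of the related lists are not reported here by name but are included in the counts. Nherf1 and Nherf2 were not listed under these symbols but as Slc9a3r1 and Slc9a3r2. Coordinates are of the RefSeq promoter table (GRCm38.p6).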

Additional observations from a re-analysis of the deposited data

Results flagged for a closer look

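In groups of 4 or 5 animals, the gap of the highest or lowest animal to its neighbour was set against the range of the group on the log2(TPM + 1) scale (Dixon's 95% limit), and 6 of 42 tests of a member in a group found an animal far from the others. Chance flags about 1 in 20 groups. In UNx animals of PT-S1 24 h, Slc5a2 was lowest in animal 3, at 792 TPM, and Slc2a2 was highest in animal 1, at 326 TPM. In sham animals of PT-S1 72 h, Slc2a1 was highest in animal 2, at 16.2 TPM. In CCD the 3 others lay at or near 0: Slc5a9 in sham animal 4 at 24 h with 0.397 TPM, Slc5a2 in UNx animal 3 at 72 h, listed at 0 TPM, and Slc5a1 in sham animal 1 at 72 h with 0.730 TPM.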

How the results depend on the processing

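Of 270 values of the 40 member tests under other settings, 239 kept their direction and side of the threshold, 30 changed direction and 1 passed the threshold; leaving out 1 animal gave 366 values, of which 335 kept both and 31 changed direction. The values that passed or changed direction follow, none of which had passed before, and the cause was not tested. With a replicate block 1 member passed in PT-S1 24 h (Slc5a1, 3.11, adjusted p = 0.0313, with UNx animal 4 lost for want of a partner). The block gave 0.023 for Slc2a2 and 0.31 for Slc2a9 in CCD 24 h. Same-numbered animals correlated from -0.37 to 0.328, over 0.1 for every number in no table. The labels do not say whether same-numbered animals share more than a number, and so few animals cannot settle it. Log2 differences with quantile normalization were 0.033 (Slc2a1) and 0.070 (Slc2a9) in PT-S1 24 h, -0.16 (Pdzk1ip1), 0.055 (Slc2a2) and 0.11 (Slc2a9) in PT-S1 72 h, 0.063 (Slc2a2) and 0.059 (Slc2a9) in CCD 24 h, and -0.036 (Pdzk1ip1) in CCD 72 h. Median-ratio scaling gave 0.22 (Slc5a2), 0.052 (Slc5a9), 0.30 (Slc2a2) and 0.14 (Slc2a9) in PT-S1 72 h and 0.0078 (Slc2a1) and 0.0089 (Slc2a9) in CCD 24 h. The log2 of the mean TPM gave -0.037 (Slc2a2) in PT-S1 24 h and 0.081 (Slc5a2), 0.16 (Slc2a2) and 0.036 (Slc2a9) at 72 h, and the animal as a random effect 0.012 (Slc2a9) at 72 h. Without the libraries of low correlation Slc2a2 was -0.020 in PT-S1 24 h, and in PT-S1 72 h Slc5a2 was 0.44, Slc5a9 0.21, Pdzk1ip1 -0.037, Slc2a2 0.51, Slc2a1 0.19, Slc2a9 0.26, the ratio of Slc5a2 to Pdzk1ip1 0.48 and that of Slc5a2 to Slc5a1 0.16. Leaving out 1 animal gave -0.0083 to 0.22 for Pdzk1ip1 and -0.12 to 0.29 for Slc2a2 in PT-S1 24 h. In PT-S1 72 h it gave -0.33 to 0.090 for Slc5a2, -0.18 to 0.60 for Slc5a1, -0.27 to 0.090 for Slc2a2, -0.090 to 0.081 for Slc2a9, and ratios of -0.54 to 0.0059 (Slc5a2 to Pdzk1ip1), -0.78 to 0.021 (Slc5a2 to Slc5a1) and -0.19 to 0.035 (Slc5a2 to Slc2a2). In CCD 24 h it gave -0.12 to 0.044 for Slc2a2, -0.16 to 0.18 for Slc2a1, -0.33 to 0.31 for Slc2a9 and -0.38 to 0.28 for the ratio of Slc2a1 to Slc2a9, and in CCD 72 h -0.16 to 0.050 for Slc2a1. Counts over all genes moved more. In PT-S1 24 h the 0 became 100 with the animal as random effect, 81 with the block, 2 with genes above 0 TPM in at least 3 animals, 1 with quantile normalization, with median-ratio scaling or without libraries of low correlation, and 0 to 8 (without UNx animal 4) with 1 animal left out. In PT-S1 72 h it became 10 with the random effect and 1 without libraries of low correlation. In CCD 24 h the 136 became 485 with the random effect, 0 with the block, 1 with genes above 0 TPM in at least 3 animals and 7 (without UNx animal 1 or 2) to 78 with 1 animal left out. In CCD 72 h the 82 became 39 at a mean of at least 5 TPM, 7 with genes above 0 TPM in at least 3 animals, 129 without the library of low correlation, 3 with the block and 8 (without UNx animal 3) to 73 with 1 animal left out. TPM keeps no depth, so what depth limits could not be computed.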
